A study of Mus musculus with 6 samples.

Results

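The 6 RNA-seq libraries of mouse osteoclasts in this study fall into 2 naming classes. The table columns of libraries 5 and 6 open with a library number followed by a second number. Those of libraries 1 to 4 open with a single number. What the second number stands for is not given in the sources used here. The members described here are libraries 5 and 6, 2 of 6 libraries, grouped by column name. The split and its marker genes were chosen with earlier results of these data known, so tests of those markers describe values already seen. Each naming class holds both genotypes. Wild-type libraries were 1, 4 and 6, and libraries 2, 3 and 5 were labelled Tet2Rank–/–; Tet3aRank+/–, read here as Tet2 deleted on both copies and Tet3 on 1 copy. The labels spell out neither what Rank stands for nor which promoter drives a deletion. Every library came from C57BL/6 bone marrow cells kept for 2 days in M-CSF, the growth factor of the monocyte lineage, and then cultured with M-CSF and RANKL, the cytokine that turns precursors into osteoclasts. Age is not given in the sources used here. Polyadenylated RNA was made into stranded libraries and read from 1 end over 75 bases. Total counts were 8794973 to 14267135 in libraries 1 to 4 and 13849747 and 12845879 in libraries 5 and 6, so the depths of the classes overlapped. The labels do not say which libraries came from separate animals or cultures, and p-values measure only the spread between these libraries.

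Several marker genes bear on the labels. In each genotype the labels name 1 female and 2 male samples, but column names tie no column to a sex. Xist, the RNA that coats the inactive X chromosome of females, was counted 7328, 9244, 748 and 2762 times in libraries 1 to 4 and 1 time in each of libraries 5 and 6. The Y-linked gene Ddx3y had 27, 191, 736, 850, 1008 and 968 counts in libraries 1 to 6. Libraries 1 and 2 therefore held mainly Xist with some Ddx3y, libraries 3 and 4 held both, and libraries 5 and 6 held almost only Ddx3y. In CPM, Ddx3y stood at 3.15 and 13.3 in libraries 1 and 2 and at 65.6 to 77.8 in libraries 3 to 6, which crosses the naming split. The Y-linked genes Kdm5d, Uty and Eif2s3y were likewise lower in libraries 1 and 2 than in the others. The part of sex in the split was not tested. The deleted genes did not follow the split: the log2 difference between classes was 0.04 for Tet2 and -0.01 for Tet3. Between genotypes, libraries 2, 3 and 5 over 1, 4 and 6, it was -0.57 for Tet2 and 0.22 for Tet3 (edgeR adjusted p of 0.0420 and 0.326). Tet2 was still counted in libraries 2, 3 and 5, at 57.8, 45.5 and 52.3 CPM, against 71.8, 80.7 and 79.5 in libraries 1, 4 and 6. All 10 osteoclast markers used to check the cell type, among them Ctsk, Acp5 and Mmp9, were counted in all 6 libraries.

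An osteoclast is a multinucleated cell made by fusion of monocyte-lineage precursors. It acidifies the space beneath it with a proton pump and digests bone collagen with cathepsin K, encoded by Ctsk, and other proteases. The work is costly in energy, and osteoclasts are rich in mitochondria. Marrow cultures can also carry granulocytes, stromal cells and antigen-presenting cells. Growth hormone (Gh) and pro-opiomelanocortin (Pomc, the precursor of ACTH) are secreted by endocrine cells of the anterior pituitary gland and are not known as products of osteoclasts. The nuclear genome also holds old copies of mitochondrial DNA, annotated as pseudogenes, which can be nearly identical to the mitochondrial genes.

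Such copies gave the most sharply separated values of the split, so the sequences of 3 are shown. The first pair below is identical to a mitochondrial transcript over a full read length of 75 bases. The last pair sets a stretch of Gm13340 beside the same stretch of mt-Co1, with capitals at the 3 bases where they differ. All run 5′ to 3′ and come from the GENCODE M21 transcripts of build mm10. Gm10925 and Gm28661 are shown at bases 301 to 375 of the transcript, where mt-Atp6 and mt-Co2 have the same bases, and Gm13340 and mt-Co1 at bases 427 to 501.
Gm10925: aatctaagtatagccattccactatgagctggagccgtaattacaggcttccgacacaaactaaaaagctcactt
Gm28661: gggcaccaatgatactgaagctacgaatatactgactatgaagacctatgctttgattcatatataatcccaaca
Gm13340: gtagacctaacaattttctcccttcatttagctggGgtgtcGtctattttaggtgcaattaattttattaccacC
mt-Co1: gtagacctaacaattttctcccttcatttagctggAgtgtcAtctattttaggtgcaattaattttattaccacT

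Across all genes, more genes were lower than higher in libraries 5 and 6, and most of the lower ones were nearly absent there. Counts were tested with edgeR's quasi-likelihood test, with genotype as a second term and Benjamini-Hochberg adjustment over 14784 genes to a threshold of 0.05. Of these, 199 passed (1.35%): 47 were higher in libraries 5 and 6 (0.318%) and 152 lower (1.03%). Genotype, in the same fit, called 1129 genes (7.64%), of which 23 were also called for the split. The 152 lower genes comprised 123 protein-coding genes, 24 pseudogenes and 5 others, so pseudogenes made up 15.8% of them against 1.26% of all genes tested. Of the 152, 93 had 3 counts or fewer in libraries 5 and 6 together, against 837 of the 14784 genes tested. The 47 higher genes were 43 protein-coding genes, 1 pseudogene and 3 other RNAs. The first principal component, which carried 66.8% of the variance of log2 CPM (counts scaled to library size), placed libraries 5 and 6 at 85.9 and 98.1 and the others between -78.0 and 3.28.

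The number of calls was not stable. Of the 199 calls, 141 had an adjusted p above 0.04, 1252 genes had an adjusted p under 0.1, and 3549 had an unadjusted p under 0.05 (24% of those tested). DESeq2 called 637 genes higher (4.31%) and 1252 lower (8.47%), and limma-voom 16 higher (0.108%) and 6 lower (0.0406%). Under upper-quartile factors 20 genes were higher and 38 lower, and under library totals 16 and 30. Without library 5 the counts were 1 and 15, and without library 6 they were 2 and 12, since a single library then stood for the class. Without library 2 they were 19 and 21, without library 1 they were 106 and 856, and without library 3 they were 703 and 602. Without library 4 they were 27 and 177. With the pituitary genes and all pseudogenes removed from the fit, 15 and 9 genes passed. Of the gene lists described next, 0 members passed without library 5 or without library 6.

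**Figure D1:**
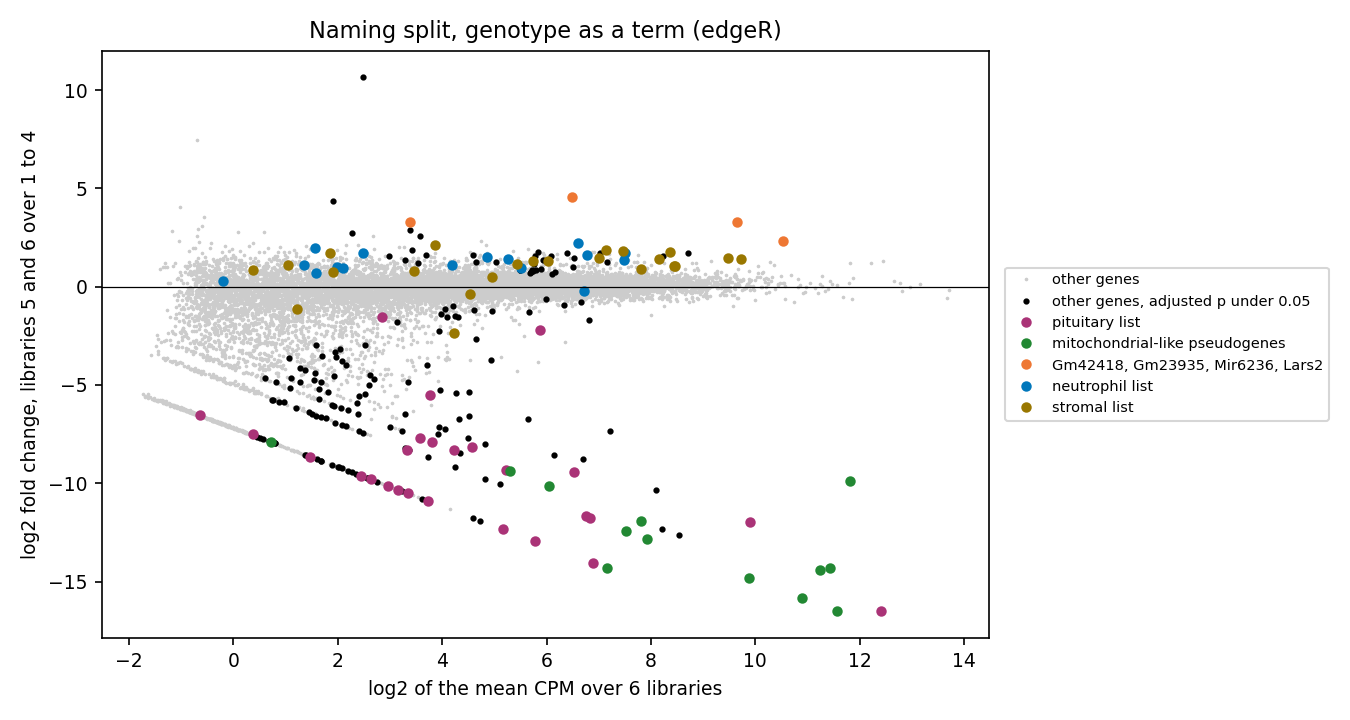
Each point is 1 of 14784 genes; the horizontal axis is the log2 of the mean CPM over 6 libraries and the vertical axis the edgeR log2 fold change of libraries 5 and 6 over libraries 1 to 4, with genotype as a term. Pituitary genes and mitochondrial-like pseudogenes lie far below 0, neutrophil and stromal genes mostly between 0 and 2.5, and the slanted lines at the lower left are genes with 0 or 1 count in libraries 5 and 6, whose fitted fold depends on the prior count.

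Pituitary hormone genes were present in libraries 1 to 4 and almost absent from libraries 5 and 6. Growth hormone, Gh (ENSMUSG00000020713, chr11:106300271-106301865, mm10), was counted 17918, 158499, 51372 and 184265 times in libraries 1 to 4, and 2 and 0 times in libraries 5 and 6. In CPM these are 2093, 11025, 5235 and 14229 against 0.149 and 0. The classes lay far apart, and in library 4 growth hormone was the most counted gene of all, with 1.49% of the counts. The mean was 8146 ± 5490 CPM (SD, n = 4) against 0.0746 ± 0.105 (SD, n = 2). With only 2 counts in the lower class, the ratio was 116534, with a 95% counting interval of 32260 to 962261 that covers counting error only. The edgeR log2 fold change was -16.50 ± 1.64 (SE), with an adjusted p of 0.0143. Pomc (ENSMUSG00000020660, chr12:3954951-3960642) had 4307, 29439, 10061 and 27543 counts in libraries 1 to 4 and 5 and 4 in libraries 5 and 6. Its log2 fold change was -11.96 ± 1.09 (SE), with an edgeR adjusted p of 0.0101. By a two-sided exact permutation test over 2 and 4 libraries, both genes gave p = 0.133, the smallest value that 15 arrangements allow. In bulk RNA, fewer cells of a type and less RNA per cell cannot be told apart, and the source of these transcripts in libraries 1 to 4 was not tested.

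The pituitary list, 26 genes with Gh and Pomc among them, had the same pattern. In edgeR 12 of 26 members passed as lower and 0 as higher, against 1.03% of all genes lower. In DESeq2 25 of 26 were lower, against 8.47% of all genes, and in limma-voom 0 of 26 passed. In 25 of 26 members libraries 5 and 6 both lay below the other 4 libraries, against 15% of all genes tested. Gh and Pomc, the markers given with the split, are among the 12 and among the 25, so these counts include values already seen. The median log2 fold change was -9.51, or -8.12 with genes at 0 counts set to their bound of 3 counts over the class, against -0.02 over all genes.

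The hormone subunits came first. Cga, the alpha subunit shared by the glycoprotein hormones, was counted 202, 1358, 708 and 1827 times in libraries 1 to 4 and 0 times in libraries 5 and 6, so at least 772-fold lower with the floor of 3 counts over the class (edgeR adjusted p = 0.0497). Tshb, the thyroid-stimulating hormone subunit, had 114, 1104, 431 and 1061 counts and then 0 and 0 (edgeR adjusted p = 0.0514). Prl, Lhb and Fshb, which encode prolactin and the beta subunits of the gonadotropins, reached at most 294 counts in libraries 1 to 4 and 0 in libraries 5 and 6. Of the hormone genes, Gh, Pomc and Cga thus passed, while Tshb, Prl, Lhb and Fshb, all at 0 in both libraries, did not.

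Secretory granule genes behaved alike. Chga, chromogranin A of dense-core granules, had 448, 3396, 1125 and 3981 counts in libraries 1 to 4 and 0 in each of libraries 5 and 6. Scg2, secretogranin II, had 446, 2781, 1138 and 3702 counts against 0 and 1. Both passed in edgeR, with adjusted p of 0.0493 and 0.0332, as did Chgb, Pcsk2, Pcsk1 and Pcsk1n, which encode another granin, prohormone convertases and an inhibitor of such a convertase. The transcription factor genes Pou1f1 and Lhx3, which direct pituitary development, had 0 counts in libraries 5 and 6 and 30 to 330 counts in libraries 1 to 4, and did not pass (edgeR adjusted p of 0.0676 and 0.0546). Not all members were absent from libraries 5 and 6. Cpe, a carboxypeptidase that trims prohormones, stood at 16.3 and 18.6 CPM there against 27.6 to 121 in libraries 1 to 4, and Pitx1 at 3.88 and 2.57 CPM against 1.28 to 16.6, the single member whose values overlapped.

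Within libraries 1 to 4 the pituitary genes had a shared order. Together they made up 0.286%, 1.47%, 0.728% and 1.92% of the counts of libraries 1 to 4 and 0.00209% and 0.00222% in libraries 5 and 6. Most of this share in libraries 1 to 4 was Gh alone, at 0.204%, 1.11%, 0.540% and 1.49%. In 19 of 26 members the order was library 1 lowest, then 3, 2 and 4, which held for 1182 of the 14784 genes tested. The median ratio of library 4 to library 1 was 6.10 over the list and 0.986 over all genes. The order does not follow genotype, since libraries 1 and 4 are both wild type.

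**Figure D2:**
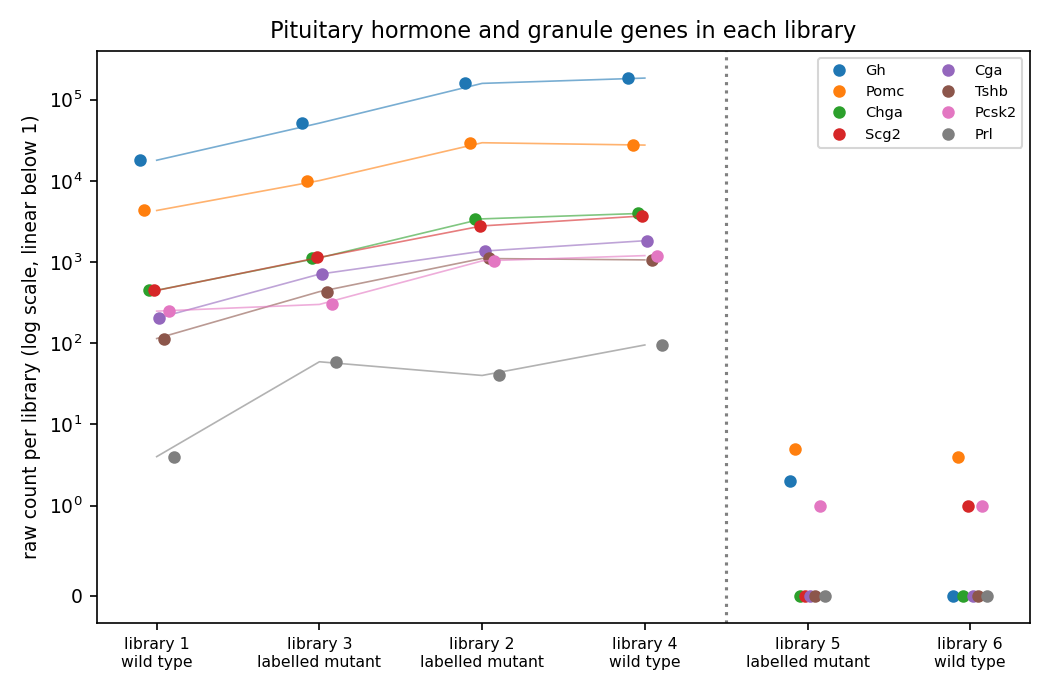
Raw counts of 8 pituitary genes in each library, on a log axis that is linear below 1, with libraries 1 to 4 in the order 1, 3, 2, 4 and libraries 5 and 6 to the right of the dotted line. Gh lies between 17918 and 184265 in libraries 1 to 4 and at 2 and 0 in libraries 5 and 6; lines join the points of 1 gene and stand for no time course.

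Presence in libraries 1 to 4 and absence from libraries 5 and 6 was not limited to the pituitary list. In all, 226 genes had at least 1 CPM in each of libraries 1 to 4 and 3 counts or fewer in libraries 5 and 6 together, 197 of them protein coding, 22 pseudogenes and 7 other RNAs. The 226 come from the 14784 genes tested, and only 16 of them are in the pituitary list. Over the 197 protein-coding genes the median ratio of library 4 to library 1 was 3.42, and 91 followed the order 1, 3, 2, 4 (46.2%). Nnat (neuronatin, a membrane protein of neural and endocrine cells) had 2237, 11244, 3700 and 10576 counts in libraries 1 to 4 and 2 and 0 in libraries 5 and 6 (edgeR adjusted p = 0.00823). Krt18, a keratin of simple epithelia, and Igsf1, a membrane glycoprotein of pituitary cells, were lower too, with edgeR adjusted p of 0.0485 and 0.0374.

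Endothelial and neuronal lists pointed the same way in size. Of 10 endothelial genes 0 passed in edgeR, 7 had an unadjusted p under 0.05 (24% of all genes), 6 passed as lower in DESeq2 (8.47% of all genes) and 0 in limma-voom, 9 had a log2 fold change below 0, and the median was -2.50. The exception was Vwf, von Willebrand factor, at 11.6, 16.8, 9.68 and 9.498 CPM in libraries 1 to 4 and 26.99 and 14.3 in libraries 5 and 6. Kdr, a VEGF receptor, stood at 10.7, 33.1, 11.6 and 23.2 CPM against 10.6 and 8.20. Cdh5, the VE-cadherin of vessel junctions, stood at 4.09, 10.0, 5.60 and 11.7 CPM in libraries 1 to 4 and 0.820 and 0.724 in libraries 5 and 6 (edgeR adjusted p = 0.0546). Of 8 neuronal genes tested, 1 passed in edgeR as lower, against 1.03% of all genes. It was Map2, a dendritic microtubule protein (edgeR adjusted p = 0.0374). DESeq2 called 4 of the 8 lower (8.47% of all genes) and limma-voom 0, and the median was -4.22. The erythroid and megakaryocyte list was mixed: of 13 genes 8 were above 0 and 5 below, and the median was 0.43. In edgeR 1 passed as higher (0.318% of all genes), the platelet gene Pf4 given further on. As lower 2 passed (1.03% of all genes), both haemoglobins. DESeq2 called 3 higher (4.31% of all genes) and 5 lower (8.47% of all genes), and limma-voom 1 higher (0.108% of all genes) and 0 lower. Hbb-bs had 66, 417, 158 and 340 counts in libraries 1 to 4 and 1 and 0 in libraries 5 and 6, and Hbb-bt 16, 62, 41 and 70 against 0 and 0 (edgeR adjusted p of 0.0294 and 0.0493).

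The 13 called pseudogenes whose closest annotated transcript, other pseudogenes left out, is a mitochondrial gene were nearly absent from libraries 5 and 6. Only pseudogenes already called were matched, so any uncalled copies are not described here. The share of counts of the 13 varied less across libraries 1 to 4 than that of the pituitary genes. Gm10925, the copy of mt-Atp6 shown above, had 37956, 49065, 39280 and 83294 counts in libraries 1 to 4 and 0 and 1 in libraries 5 and 6. Gm28661, the copy of mt-Co2, had 22814, 31987, 24139 and 52348 counts and then 0 and 1. Each had an edgeR adjusted p of 5.69e-05. The 13 took 2.25%, 1.80%, 2.201% and 3.27% of the counts of libraries 1 to 4, and 0.000404% and 0.000919% of those of libraries 5 and 6. None of the 13 followed the order 1, 3, 2, 4, and their median ratio of library 4 to library 1 was 1.49, against 6.10 for the pituitary genes.

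Of the 13, 7 lie side by side at chr1:24611535-24616197 (mm10, minus strand). Read along that strand they are copies of mt-Co1, mt-Co2, mt-Atp6, mt-Co3, mt-Nd3, mt-Nd4l and mt-Nd4, the order of these genes on the mitochondrial chromosome. Over these 7, between 96.9% and 100% of the 75-base windows were identical to a mitochondrial transcript. The 7 had 789303 counts in libraries 1 to 4 together and 14 in libraries 5 and 6. Less similar copies were lower too. Gm13340 and Gm13339 on chromosome 2, at 97.6% and 96.7% identity to mt-Co1 and mt-Nd2, shared 15% and 12.6% of their windows with mitochondrial transcripts. Gm13340 kept the most counts in the second class, 49 and 105 against 48307 to 90153 in libraries 1 to 4. The 3 copies on chromosome 4 and the 1 on chromosome 13 were 92.3% to 95.2% identical, shared between 0% and 2.13% of windows, and were lower as well. The least counted of the 13, Gm11408, had 15 to 44 counts in libraries 1 to 4 and 0 in libraries 5 and 6.

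The table has 0 rows of the mitochondrial chromosome itself, so whether mitochondrial reads differed between the classes could not be read. How the counting treated reads that match several places is not given in the sources used here, and its part in the result was not tested. Pseudogenes other than these 13 took between 0.151% and 0.176% of the counts in all 6 libraries. Of the 24 pseudogenes called lower, the other 11 include 10 with at least 98% identity to another transcript, for example Gm7964, 99.2% identical to the RNA-binding protein gene Hnrnpk, at 15.4, 14.2, 14.1 and 12.4 CPM in libraries 1 to 4 and 0 in libraries 5 and 6 (edgeR adjusted p = 0.00275). One pseudogene went the other way. Gm5778, 93.4% identical to Hnrnpa2b1, had 0 counts in each of libraries 1 to 4 and 219 and 213 in libraries 5 and 6, so at least 255-fold higher with the 3-count floor over the class (edgeR adjusted p = 0.0342). Reversing the rule that gave the 226 genes, only 2 of the 14784 genes tested qualified, Gm5778 and D5Ertd615e. The reversed rule asked for 3 counts or fewer in libraries 1 to 4 together and at least 1 CPM in each of libraries 5 and 6. Its limit spans 4 libraries, against 2 for the 226 genes, and is thus the stricter one.

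A locus that matches ribosomal RNA and 3 other genes were among the most strongly higher in libraries 5 and 6. Gm42418 (chr17:39846958-39848788, mm10) is annotated as a long noncoding RNA, and 1244 bases of it match an annotated ribosomal RNA, CT010467.1, at 100% on the opposite strand. It stood at 513, 508, 742 and 758 CPM in libraries 1 to 4 and 3034 and 3290.4 in libraries 5 and 6 (log2 fold change 2.33 ± 0.22 SE, edgeR adjusted p = 0.0108). The short RNAs Gm23935 and Mir6236, annotated as microRNAs, had edgeR log2 fold changes of 4.56 and 3.28, with adjusted p of 0.00139 and 0.0101. Lars2, the mitochondrial leucyl-tRNA synthetase, stood at 246, 123, 195 and 282 CPM in libraries 1 to 4 and 1926 and 2073 in libraries 5 and 6, or 3.30 higher on the log2 scale (SE 0.23, edgeR adjusted p = 0.00275). These 4 genes, put together after their values were seen, took 0.0651% to 0.111% of the counts of libraries 1 to 4 and 0.503% and 0.549% of those of libraries 5 and 6. None of the values overlapped between the classes. The strand setting of the counting is not given, so Gm42418 and its ribosomal partner cannot be told apart here. Of 30 cytosolic ribosomal protein genes 0 passed in edgeR, 1 had an unadjusted p under 0.05, DESeq2 called 1 and limma-voom 0, and their median log2 fold change was 0.06.

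**Figure D3:**
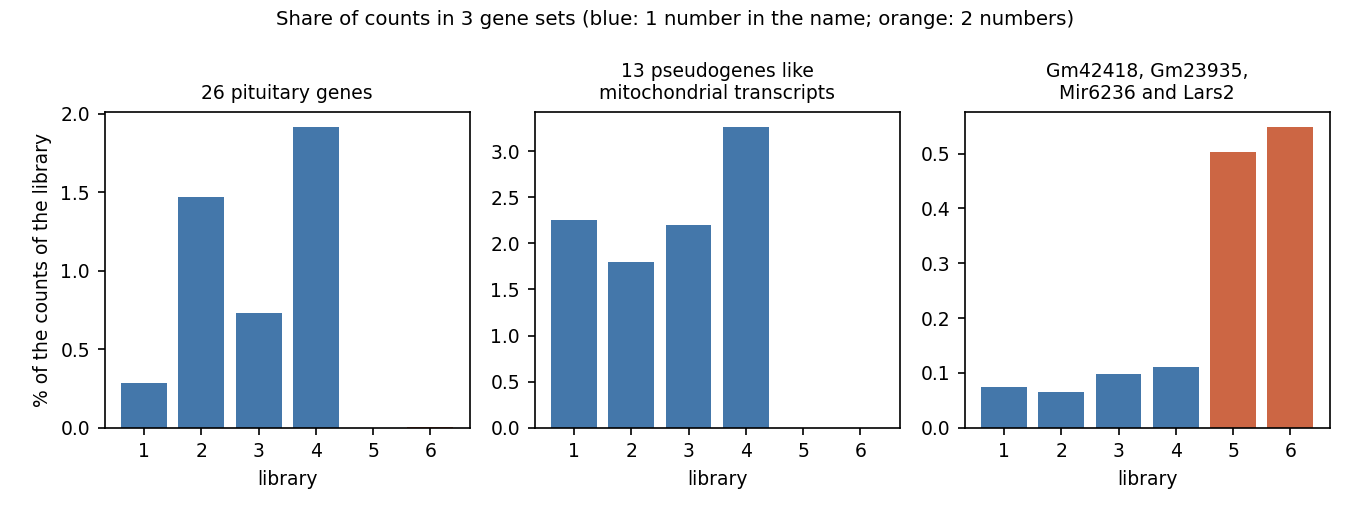
Bars give the share of each library's counts, in percent from 0, that fell on the 26 pituitary genes, the 13 mitochondrial-like pseudogenes and the 4 genes Gm42418, Gm23935, Mir6236 and Lars2; blue bars are libraries 1 to 4 and orange bars libraries 5 and 6. The first 2 sets are at 0.00222% or less in libraries 5 and 6, where their bars cannot be seen, while the third is at 0.503% and 0.549% there.

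Neutrophil granule genes were higher in libraries 5 and 6. Of 16 neutrophil genes 6 passed in edgeR as higher and 0 as lower, against 0.318% of all genes, and in 11 of 16 libraries 5 and 6 both lay above the other 4 libraries, against 9.29% of all genes. The median log2 fold change was 1.21. S100a8 and S100a9 encode the subunits of calprotectin, an abundant cytosolic protein of neutrophils. S100a8 (chr3:90668978-90670035, mm10) stood at 27.9, 50.02, 76.2 and 29.7 CPM in libraries 1 to 4 and 240 and 159 in libraries 5 and 6, or 2.198 higher on the log2 scale (SE 0.19, edgeR adjusted p = 0.00867). S100a9 stood at 74.8, 129, 152 and 68.0 CPM against 419 and 253 (edgeR adjusted p = 0.00332). Library 5 was the highest and library 6 the next for both. Both genes were also called for genotype, higher in the labelled mutant (log2 0.94 and 0.89, edgeR adjusted p of 0.0373 and 0.0181).

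The other members that passed were secondary granule proteins. Ltf, lactoferrin, stood at 46.8, 80.3, 94.5 and 43.3 CPM in libraries 1 to 4 and 234 and 155 in libraries 5 and 6 (edgeR adjusted p = 0.0055). Camp, the cathelicidin peptide, Ngp, neutrophilic granule protein, and Lcn2, which binds bacterial iron carriers, had log2 fold changes of 1.53, 1.33 and 1.42. Mpo and Elane, enzymes of the earlier primary granules, had log2 fold changes of 1.08 and 1.69 with edgeR adjusted p of 0.14 and 0.0648. Ly6g, a surface marker of mature neutrophils, was at 0.348 to 1.83 CPM in libraries 1 to 4 and 1.42 and 0.563 in libraries 5 and 6, and overlapped, as did Csf3r. Also higher, outside the list, were Chil3, a chitinase-like protein of myeloid cells, and Hp, haptoglobin, with edgeR adjusted p of 0.0135 and 0.0257. Ltf, Lcn2 and Chil3 were called for genotype as well, higher in the labelled mutant (edgeR adjusted p of 0.0219, 0.0365 and 0.0226). Camp and Hp were not (edgeR adjusted p of 0.248 and 0.329). In limma-voom 6 members also passed, and 6 with the pituitary genes and pseudogenes removed, while 0 passed without library 5 or without library 6. The summed neutrophil level was 380 to 726 CPM in libraries 1 to 4 and 1669 and 1077 in libraries 5 and 6, and the part of neutrophils in the culture was not tested.

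Matrix and stromal genes were also on the high side. Of 23 stromal genes tested 2 passed in edgeR as higher, against 0.318% of all genes, and 0 as lower, 20 had a log2 fold change above 0, and the median was 1.14. In 11 of 23 both libraries lay above the other 4, against 9.29% of all genes, and DESeq2 called 13 higher (4.31% of all genes) and 1 lower, and limma-voom 1 higher. Col6a1, an alpha chain of collagen VI, stood at 73.7, 74.8, 129 and 107 CPM in libraries 1 to 4 and 346 and 324 in libraries 5 and 6 (edgeR adjusted p = 0.0374). Its partner chain gene Col6a2 stood at 53.7, 54.8, 104 and 87.0 CPM against 249 and 233 (edgeR adjusted p = 0.0497). Alpl, the alkaline phosphatase of bone-forming cells, stood at 7.36, 4.45, 7.95 and 7.80 CPM against 30.1 and 29.7 (edgeR adjusted p = 0.0262). For all 3, libraries 5 and 6 were close to each other and above every other library.

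Col1a1, the main collagen of bone, stood at 414, 275, 1139 and 377 CPM in libraries 1 to 4 and 1613 and 1240 in libraries 5 and 6, and did not pass (edgeR adjusted p = 0.143). Library 3 was the high one among the first 4, for Col1a1 as for Acta2 and Bgn. Dcn, decorin, went the other way, at 14.1 to 41.7 CPM in libraries 1 to 4 and 8.65 and 2.17 in libraries 5 and 6 (edgeR adjusted p = 0.0921). Secreted proteins outside the list passed too. Inhbb, a subunit of activin B, stood at 4.21, 4.31, 7.13 and 2.63 CPM in libraries 1 to 4 and 30.6 and 22.6 in libraries 5 and 6 (log2 fold change 2.58 ± 0.28 SE, edgeR adjusted p = 0.0226). Ptx3, a pentraxin of innate defence, and Adamts13, the protease that cuts von Willebrand factor, had log2 fold changes of 2.87 and 4.34, and Gpc1, a cell surface proteoglycan, 1.75.

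Antigen presentation genes were highest in library 5. Of 15 genes of dendritic cells and class II antigen presentation, 2 passed in edgeR as higher, H2-Aa and H2-Ab1, the chains of 1 class II molecule, with an adjusted p of 0.0493 each, against 0.318% of all genes. DESeq2 called 5 higher (4.31% of all genes), and 0 passed in limma-voom or with the pituitary genes and pseudogenes removed. H2-Aa stood at 193, 318, 268 and 115 CPM in libraries 1 to 4, 1244 in library 5 and 367 in library 6. The invariant chain gene Cd74 stood at 734, 1105, 934 and 487 CPM, then 3135 and 1081, so that library 6 overlapped the first 4 (edgeR adjusted p = 0.0607). The platelet factor gene Pf4 passed with overlapping values, 9.11, 48.8, 63.7 and 5.71 CPM in libraries 1 to 4 and 184 and 19.4 in libraries 5 and 6 (edgeR adjusted p = 0.0335). Within each genotype the library with a second number was the highest for H2-Aa and for Pf4. H2-Aa, H2-Ab1 and Pf4 were also called for genotype, higher in the labelled mutant. Their log2 differences between genotypes were 1.20, 1.13 and 3.06 (edgeR adjusted p of 0.0417, 0.0381 and 0.00552).

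The osteoclast programme did not pass. Of 32 genes of osteoclast differentiation and resorption 0 passed in edgeR, 20 had an unadjusted p under 0.05 (24% of all genes), 29 had a log2 fold change above 0, and the median was 0.79. DESeq2 called 15 of them higher (4.31% of all genes) and limma-voom 0. Ctsk, cathepsin K, stood at 5751, 850, 2019 and 4625 CPM in libraries 1 to 4 and 3301 and 12144 in libraries 5 and 6 (log2 fold change 1.21 ± 0.32 SE, edgeR adjusted p = 0.0978). Acp5, the tartrate-resistant acid phosphatase, stood at 4089, 715, 1823 and 3379 CPM against 2780 and 8817 (edgeR adjusted p = 0.11). Values of the naming classes overlapped for both genes, since wild-type libraries were above labelled mutant ones and library 5 lay between. Calcr, the calcitonin receptor, came nearest to the threshold, at 54.5, 11.6, 25.2 and 37.4 CPM against 63.98 and 132 (edgeR adjusted p = 0.0517).

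Mitochondrial respiration genes encoded in the nucleus had the same profile. Of 29 tested, 29 had a log2 fold change above 0, with a median of 0.52, and 1 passed in edgeR, Ndufa1, a subunit of complex I (adjusted p = 0.0493). DESeq2 called 22, against 4.31% of all genes, while 0 passed in limma-voom or with the pituitary genes and pseudogenes removed. Proton pump subunits, 17 tested, had a median of 0.44 and 0 passed in edgeR, where 12 had an unadjusted p under 0.05 (24% of all genes). DESeq2 called 10 of them higher (4.31% of all genes) and limma-voom 0. Of 22 mitochondrial ribosomal protein genes only Mrpl51 passed (edgeR adjusted p = 0.0497). Ndufa1 and Mrpl51 were also called for genotype, lower in the labelled mutant (log2 -0.57 and -0.69, edgeR adjusted p of 0.0362 and 0.0272). Each of these lists was highest in library 6. Across the osteoclast list, the median of log2 CPM about each gene's mean was 0.43, -1.56, -0.42, 0.17, -0.02 and 1.29 in libraries 1 to 6. Library 6 was thus the highest of the wild-type libraries and library 5 the highest of the labelled mutant ones.

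Few members of the other lists passed. Median log2 fold changes were 0.00 for 22 macrophage genes, -0.29 for 30 interferon response genes, 0.34 for 20 genes of DNA synthesis, 0.14 for 22 mitotic genes, 0.26 for 24 chaperone genes and 0.39 for 18 glycolytic genes. Of these genes 0 passed in edgeR or limma-voom. At an unadjusted p under 0.05 there were 2, 3, 2, 0, 5 and 12, in the same order. Only the 12 of 18 glycolytic genes were above the 24% of all genes with such a p. DESeq2 called 2, 1, 1, 0, 3 and 7, the interferon response gene lower and the others higher. Of all genes DESeq2 called 4.31% higher and 8.47% lower. Some of these medians were not alike within the genotypes. The median of mitotic genes was -0.36 within wild type and 0.63 within the labelled mutant, and 1 of 22 had the same sign in both. For DNA synthesis genes it was -0.01 and 0.69, for macrophage genes -0.41 and 0.20, and for 12 lysosomal cathepsin genes -0.29 and 0.23. Each value has a single library on 1 side, so a difference between genotypes is not shown. Of 15 circadian clock genes 0 passed in edgeR or limma-voom, 7 had an unadjusted p under 0.05, DESeq2 called 3 lower, and the median was -0.64. Single members passed in edgeR in further lists. Lcn2 was higher among 12 glucocorticoid targets, of which 9 were below 0 with a median of -0.40. Cd81, a tetraspanin, was lower among 15 cell fusion genes with a median of 0.60 (log2 fold change -0.80, edgeR adjusted p = 0.0497). Cd81 was also called for genotype, higher in the labelled mutant (log2 0.85, edgeR adjusted p = 0.0181). The long noncoding RNA Meg3 was lower among 24 splicing factor and nuclear noncoding RNA genes, with a median of -0.12 (edgeR adjusted p = 0.0497). Xist was lower among 5 sex-linked genes tested, of which 4 were above 0 (log2 fold change -12.30, edgeR adjusted p = 0.0493).

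**Figure D4:**
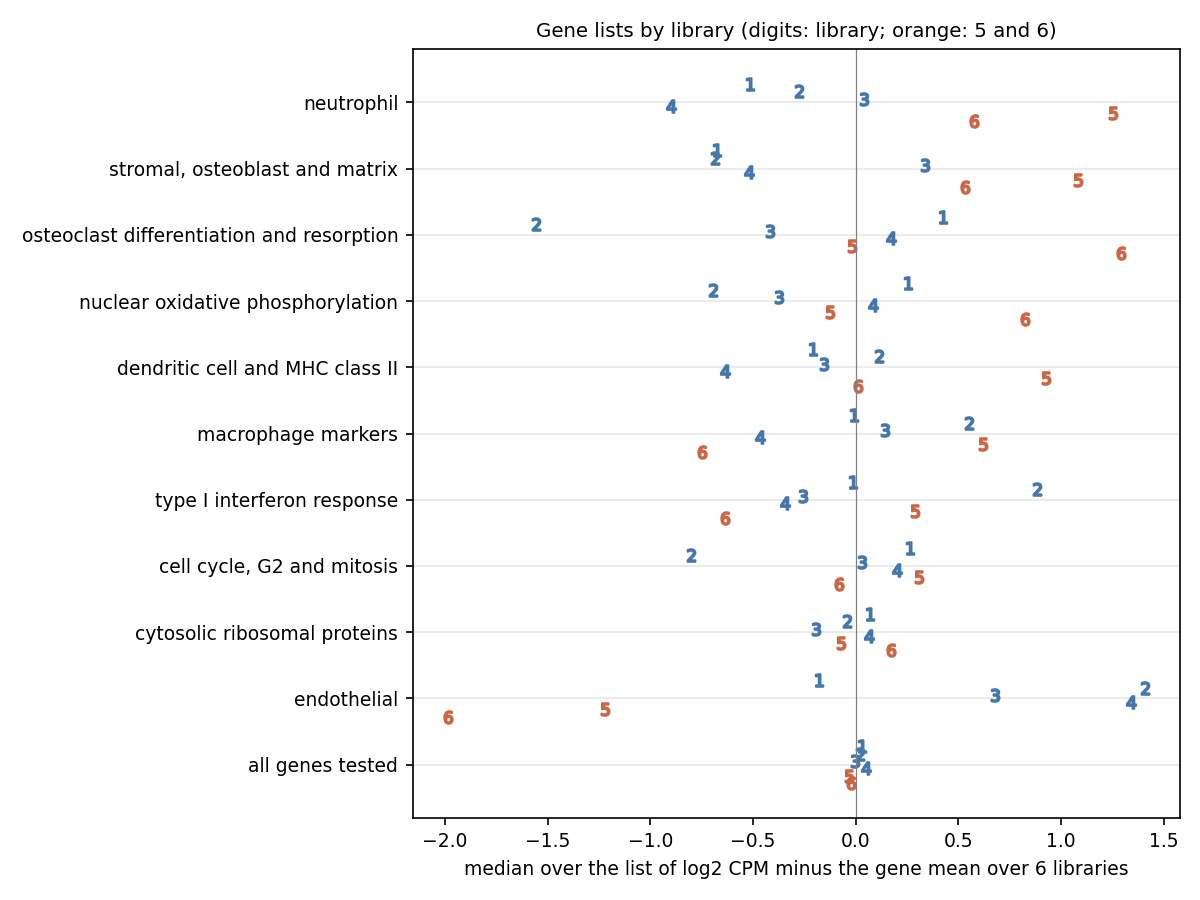
For each list, the digit of each library marks the median over the genes of log2 CPM minus the gene's mean over 6 libraries; digits are spread vertically only to be legible, and orange marks libraries 5 and 6. Neutrophil and stromal medians are highest in libraries 5 and 6, endothelial medians lowest, and the osteoclast medians run from -1.56 in library 2 to 1.29 in library 6.

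For most genes the split had the same direction in both genotypes. Library 6 against libraries 1 and 4 (wild type) and library 5 against libraries 2 and 3 (labelled mutant) share no library. Their log2 differences had the same sign for 10995 of 14784 genes (74.4%). Pearson's r was 0.89 and Spearman's rank correlation 0.69 across genes, which are not independent replicates. For genes over 2-fold apart within both genotypes the sign was the same for 2082 of 2108. All 199 called genes also had the same sign, but both differences went into that test. Within wild type 1 gene passed as higher (0.00676% of those tested) and 13 as lower (0.0879%), and within the labelled mutant 3 (0.0203%) and 14 (0.0947%), with a single library on 1 side whose spread is taken from the other classes.

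These within-genotype calls fell on pseudogenes, short RNAs and Lars2. Of the lower ones, 12 of 13 and 12 of 14 were mitochondrial-like pseudogenes, and the others were Gm7964 in both genotypes and Rab7-ps1 in the labelled mutant. Higher were Gm23935 in both genotypes, and Lars2 and Mir6236 in the labelled mutant. The difference between the genotypes' splits was tested as an interaction, and 0 genes passed in edgeR (0% of those tested), with 126 at an unadjusted p under 0.05. That does not show the splits to be equal.

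**Figure D5:**
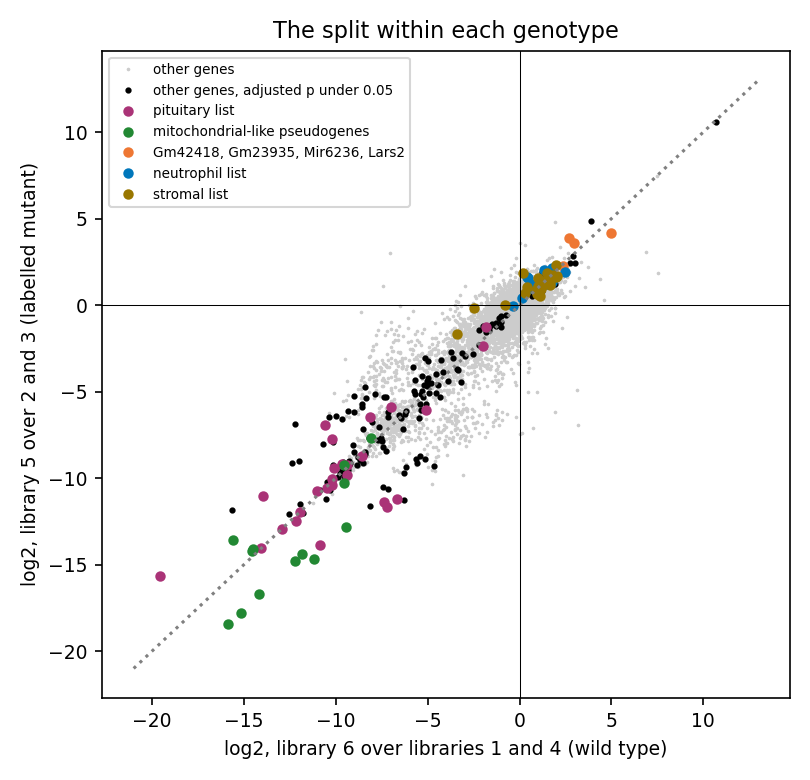
Each point is a gene; the horizontal axis is the log2 difference of library 6 over libraries 1 and 4 (wild type) and the vertical axis that of library 5 over libraries 2 and 3 (labelled mutant), with a dotted line of equality. Called genes lie in the lower left and upper right corners, with pituitary genes and mitochondrial-like pseudogenes at the far lower left.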

How the data were processed

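The authors deposited raw counts per Ensembl gene, not normalized. Build mm10 and the tools SAMtools 0.1.19, TopHat2 2.0.13 and Bowtie2 2.2.3 are named per the submitters' processing notes. Which program counted the reads, on which strand and with which annotation, is not given. After 60 identical repeated rows were dropped, 23204 genes remained, and 99.8% matched GENCODE M21. Column names give genotype but no replicate number or sex.

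Counts were scaled by TMM, filtered with filterByExpr and tested in edgeR 4.0.16 (R 4.3.3, quasi-likelihood) with naming class and genotype as terms. SE is the fitted log2 difference divided by the root of its F statistic. Within-genotype contrasts and the interaction came from a fit with 4 class means. Alternatives were DESeq2 1.42.0, limma-voom (limma 3.58.1), other scalings, other filters, no genotype term and leaving out each library. Depths were 8794973 to 14267135 counts, which put the floor of 3 counts at 0.21 to 0.341 CPM. Called pseudogenes and noncoding RNAs were matched to transcripts with BLAST+ 2.17.0 (E-value 1e-10), leaving out matches to pseudogene transcripts. Windows of 75 bases of all transcripts were compared exactly.

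Libraries, lists and markers were chosen with earlier results of these data known. Genes were named by this rule: Gh, Pomc, Tet2 and Tet3; up to 15 higher and 15 lower genes that passed, did not overlap and reached 5 CPM, by fold; the 10 smallest p; and up to 4 called members of each list, or otherwise the 2 with the highest mean. Predicted genes and pseudogenes were skipped by the rule. A few genes the rule picks are not reported here by name, and counts include them. Pseudogenes, Gm42418, Gm23935, and other list members named in the text were chosen after their values were seen. On simulated counts for 14381 genes the naming test recovered 57% of 2-fold and 92% of 4-fold changes, and 14 of its 163 calls were unchanged genes.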

Additional observations from a re-analysis of the deposited data

Results flagged for a closer look

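Among libraries 1 to 4, 31 genes named by rule were checked for a single library far from the other 3 (Dixon's gap over range, 95% critical value for 4 values). Chance flags about 1 in 20 such groups, and 3 were flagged. Adamts13 was at 1.16 CPM in library 4, the highest of the 4. Ptx3 was at 8.46 CPM in library 3, the highest, where several stromal genes were also high. Alpl was at 4.45 CPM in library 2, the lowest. In each case libraries 5 and 6 lay above all 4 values.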

How the results depend on the processing

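Genes higher and lower numbered 47 and 152 as reported. They numbered 18 and 165 without the genotype term, 637 and 1252 in DESeq2, 16 and 6 in limma-voom, 49 and 152 with DESeq2 size factors, 20 and 38 with upper-quartile factors, 16 and 30 with library totals, 996 and 1779 with no filter on low counts, and 88 and 356 with at least 10 counts in 4 libraries. With the pituitary list and pseudogenes removed, added after seeing the data, they were 15 and 9. Leaving out 1 library gave 1 to 703 higher and 12 to 856 lower. Gh and Pomc kept direction in every setting that kept them, with log2 fold changes of -12.30 to -11.46 for Pomc over the fits that left out 1 library. They missed the threshold in limma-voom (log2 fold changes -16.11 and -11.63, adjusted p 0.155 and 0.134) and without library 5 or 6 (Gh -19.54 and -15.59, Pomc -11.96 and -11.92, edgeR adjusted p 0.237 to 0.336), where 1 library stands for the class. The 13 mitochondrial-like pseudogenes were picked from genes called in the main fit, so their passing in similar fits is no separate support. With libraries 5 and 6 both in the fit, 12 or 13 passed in each setting that kept them, except limma-voom, where 6 did. The interaction gave 0 calls without any of libraries 1 to 4. No paired analysis was possible because the columns carry no replicate number. With 2 libraries against 4, most calls lie close to the threshold, and 12 of 42 called genes named by rule passed in limma-voom.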

Other observations

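Imprinted genes, which are expressed from the copy of 1 parent and are active in endocrine and fetal tissues, were looked up after several had been seen among the lower genes, so they were given no test as a set. Of 26 such genes tested, 9 passed in edgeR as lower in libraries 5 and 6 (1.03% of all genes) and 0 as higher, and in 16 both libraries lay below the other 4 (15% of all genes). Meg3, a maternally expressed long noncoding RNA, stood at 51.6, 508, 248 and 833 CPM in libraries 1 to 4 and 0.298 and 0.322 in libraries 5 and 6. Peg3, a paternally expressed zinc finger gene, stood at 72.8, 275, 130 and 410 CPM against 1.49 and 1.21. Some that passed still had counts in libraries 5 and 6, H19 with 12 and 6 and Peg3 with 20 and 15. Imprinted genes that did not pass varied. Mirg, Usp29, Igf2 and Magel2 had 0 counts in libraries 5 and 6, as low as those that passed. Their log2 fold changes were -9.80, -9.59, -7.11 and -6.22, which depend on the prior count (edgeR adjusted p of 0.0509, 0.0842, 0.182 and 0.0960). Igf2 was at 0 in library 1 too. Snrpn was at -2.75, Peg10 at -1.06 and Sgce at -0.89. Plagl1 had a log2 fold change of -3.81, Ndn -2.83, Cdkn1c -2.33, Gnas -0.98 and Grb10 -0.43. Zrsr1 was at -0.30, Kcnq1ot1 at -0.28, Impact at -0.24, Peg12 at 0.05 and Igf2r at 0.36.

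Some lower genes were present in all libraries and differed by less. Cpne8, a copine that binds membranes on calcium, stood at 25.5, 46.5, 32.9 and 35.1 CPM in libraries 1 to 4 and 5.67 and 5.23 in libraries 5 and 6 (edgeR adjusted p = 0.0101). Btg3, an antiproliferative gene, had a log2 fold change of -2.25 (edgeR adjusted p = 0.0262) and Fxyd2, a regulator of the sodium pump, -1.69 (edgeR adjusted p = 0.0497). In each the values of libraries 5 and 6 lay below those of the other 4 libraries.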
